A study of Mus musculus with 26 samples.

Results

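Promoter Capture Hi-C (PCHi-C) enriches Hi-C ligation products for restriction fragments that carry gene promoters, so a product in which both fragments were baited records proximity between a pair of promoters. The promoter-promoter contacts described here were all entries of the 3 PCHi-C lists in which both HindIII fragments carried a gene name and lay on the same chromosome, with each fragment pair counted once. They numbered 33490 of the 174253 different fragment pairs in the lists. The list of wild-type (WT) embryonic stem cells (ESCs) held 23195 of them, the list of epiblast-derived stem cells (EpiSCs) 16029, and the list of Nanog-/- ESCs 16450. Of 96056 listed fragments, 19022 were baited, and 15777 of these (82.9%) had at least 1 such contact. Baited fragments here are those in at least 1 list, so baits with no listed contact of any kind are not counted. Small RNA names were carried by 1773 of the baits, which were at an end of 4301 of the promoter-promoter contacts (12.8%).

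The study compared chromosome contacts of ESCs, a naive pluripotent state, with those of EpiSCs, a primed state closer to the post-implantation epiblast, and asked what the loss of the pluripotency factor NANOG changes in ESCs. For PCHi-C there are 5 lanes from WT ESCs, 2 from EpiSCs and 5 from the Nanog-/- line, and for RNA-seq 3, 4 and 3 samples in the same order. WT ESCs were E14Tg2a cells of 129P2/OlaHsd origin, and the Nanog-/- cells were RCNβH-B(t), a line derived from E14Tg2a that was kept under hygromycin during expansion. Both grew on gelatin in serum with LIF. EpiSCs were derived from 129S2 embryos and grew on fibronectin in N2B27 with Activin A and bFGF. The strain label of every sample reads C57BL/6, which differs from these line descriptions. The Nanog-/- state rests on 1 line, and for EpiSCs the cell state cannot be told apart from the line, strain background and medium.

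Nanog itself stood at a median of 418 RPKM (read counts scaled to gene length and sequencing depth) in WT ESCs, against 361 in EpiSCs and 22.3 in Nanog-/- ESCs. The naive markers Klf2 (302, 5.56 and 244 RPKM), Esrrb (210, 0.775 and 147) and Dppa5a (4144, 1.18 and 3731) were low in EpiSCs, whereas the primed markers Fgf5 (4.74, 219 and 1.11) and T (3.37, 444 and 1.14) were high there. All 5 somatic or feeder markers were also higher in EpiSCs, among them Col1a1 (15.0, 137 and 17.0) and Vim (134, 1162 and 231). Their part in the contacts was not tested, and in bulk samples fewer cells of a type and less RNA per cell cannot be told apart. Each list and each RPKM value combines replicates, so no comparison below has a replicate error or a test. Intervals are 95% Wilson intervals and cover counting error only.

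In the nucleus, promoters come close to one another in several settings. Active genes can share compartments and clusters of transcription machinery, genes repressed by Polycomb can gather over long distances, and chromatin loops held by cohesin stop preferentially where CTCF binds motifs that point toward each other. Tandem gene families, such as olfactory receptors and keratins, also lie in dense blocks that fold together. A listed contact is a frequency above the background for its distance, and does not by itself say that one gene acts on the other.

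Fragments were the pieces between successive AAGCTT sites of GRCm38: all 96056 began and ended on such a site of the RefSeq sequence, and 0 held one inside. To describe what the linked fragments share in sequence, baited fragments were searched on both strands for a 12-base short form of the CTCF motif, which reads CCA, any 2 bases, AG, any 2 bases and GGC. The 3 contacts shown are those with the highest summed CHiCAGO score among contacts that were in all 3 lists, spanned 100 kb or more, had 1 match at each end with the motifs pointing toward each other, and had windows free of annotated exons. CHiCAGO scores weigh the reads of a fragment pair against the background at its distance, and the lists hold no score under 5. Each window is 60 bases of RefSeq GRCm38.p6 written 5′ to 3′ along the strand that carries the motif, with the motif in capitals. The first of each pair of windows lies on the plus strand and the second on the minus strand.
Zbtb39, chr10:127738185-127738244: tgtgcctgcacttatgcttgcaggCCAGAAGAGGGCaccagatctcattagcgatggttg
Hsd17b6, chr10:128002551-128002610: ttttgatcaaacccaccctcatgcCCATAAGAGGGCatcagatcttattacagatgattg
Mir1928, chr1:74205981-74206040: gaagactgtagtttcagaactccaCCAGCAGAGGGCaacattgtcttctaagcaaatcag
Ctdsp1, chr1:74390722-74390781: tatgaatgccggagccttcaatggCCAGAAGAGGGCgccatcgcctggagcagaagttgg
Gm13398, chr2:27036630-27036689: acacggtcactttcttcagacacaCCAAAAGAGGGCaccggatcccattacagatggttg
Sardh, chr2:27247988-27248047: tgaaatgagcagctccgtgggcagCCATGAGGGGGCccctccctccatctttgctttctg

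Zbtb39, which encodes a zinc finger protein, and Hsd17b6, which encodes a hydroxysteroid dehydrogenase, lay 261 kb apart and were joined by 23 reads in WT ESCs, against 26 in EpiSCs and 16 in Nanog-/- ESCs, with scores of 30.5, 39.8 and 30.7. Mir1928 and Ctdsp1, which encodes a phosphatase of the RNA polymerase II tail, lay 185 kb apart with scores of 29.4, 14.8 and 24.5. Gm13398 and Sardh, which encodes sarcosine dehydrogenase, lay 205 kb apart with scores of 13.7, 25.7 and 9.51. The windows of Zbtb39, Hsd17b6, Ctdsp1 and Gm13398 lie in sequence that RefSeq masks as repeats, and those of Mir1928 and Sardh do not.

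The second set of sequences shows stretches before Olfr206 and Nkx2-1, genes at the ends of silent contacts. Both are the 250 bases before the RefSeq start site of a gene, on the minus strand and written in the direction of transcription, with each CG in capitals. Olfr206, an olfactory receptor gene, ended the contact with the highest score of all, and Nkx2-1, a homeobox gene of lung, thyroid and forebrain, was chosen after the values were seen, from contacts between developmental genes.
Olfr206, chr16:59345727-59345976: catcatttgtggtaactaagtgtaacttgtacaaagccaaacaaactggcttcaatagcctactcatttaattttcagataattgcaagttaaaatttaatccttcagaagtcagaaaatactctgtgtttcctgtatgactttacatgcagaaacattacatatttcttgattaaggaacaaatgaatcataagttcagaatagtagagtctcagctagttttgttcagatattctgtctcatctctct
Nkx2-1, chr12:56536909-56537158: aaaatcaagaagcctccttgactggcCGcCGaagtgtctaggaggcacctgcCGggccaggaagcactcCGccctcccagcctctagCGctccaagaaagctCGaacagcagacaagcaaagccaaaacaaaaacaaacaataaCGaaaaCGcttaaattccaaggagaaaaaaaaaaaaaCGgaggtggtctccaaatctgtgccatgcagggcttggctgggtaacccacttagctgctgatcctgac

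The Olfr206 stretch held 0 CG dinucleotides and the Nkx2-1 stretch 9. In the 300 bases around each start, the CG count over that expected from C and G content was 0 and 0.559. Both ratios lie under the 0.6 taken below as CpG-rich. Both genes were at or near 0 RPKM in all 3 cell types. Irx3 and Foxa1, developmental genes named below, had ratios of 0.748 and 0.929, so Nkx2-1 does not stand for all such genes.

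Promoter-promoter contacts made up 23.3% of the contacts within chromosomes in WT ESCs, against 18.4% in EpiSCs and 22.1% in Nanog-/- ESCs. The rest, 76511, 70952 and 58135 pairs, joined a baited fragment to a fragment with no gene name and are called promoter-other contacts below. A promoter-promoter contact could be listed from either end, and 31.5%, 34.8% and 44.3% of them were listed from both, with scores that differed between the ends in nearly all of these pairs and by a median ratio of 1.284, 1.265 and 1.251. The higher score was kept here, so promoter-promoter contacts had a chance at each end to be listed, which promoter-other contacts did not.

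The median distance between fragment midpoints was 129 kb in WT ESCs (middle 50% of pairs 53.5 to 247 kb), 114 kb in EpiSCs (45.4 to 232 kb) and 83.8 kb in Nanog-/- ESCs (33.5 to 175 kb). Among contacts with at least 10 reads the medians were 75.8, 56.7 and 36.7 kb. Promoter-other contacts had medians of 142, 147 and 70.7 kb, so promoter-promoter contacts were the shorter kind in WT ESCs and EpiSCs and the longer kind in Nanog-/- ESCs. In the plot of distances, promoter-other pairs had a second, lower peak between 10 and 15.8 kb in each list. It reached 5.51% of pairs per bin in Nanog-/- ESCs, 2.88% in WT ESCs and 2.34% in EpiSCs. The promoter-promoter curves rose across this range in each list instead.

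**Figure D1:**
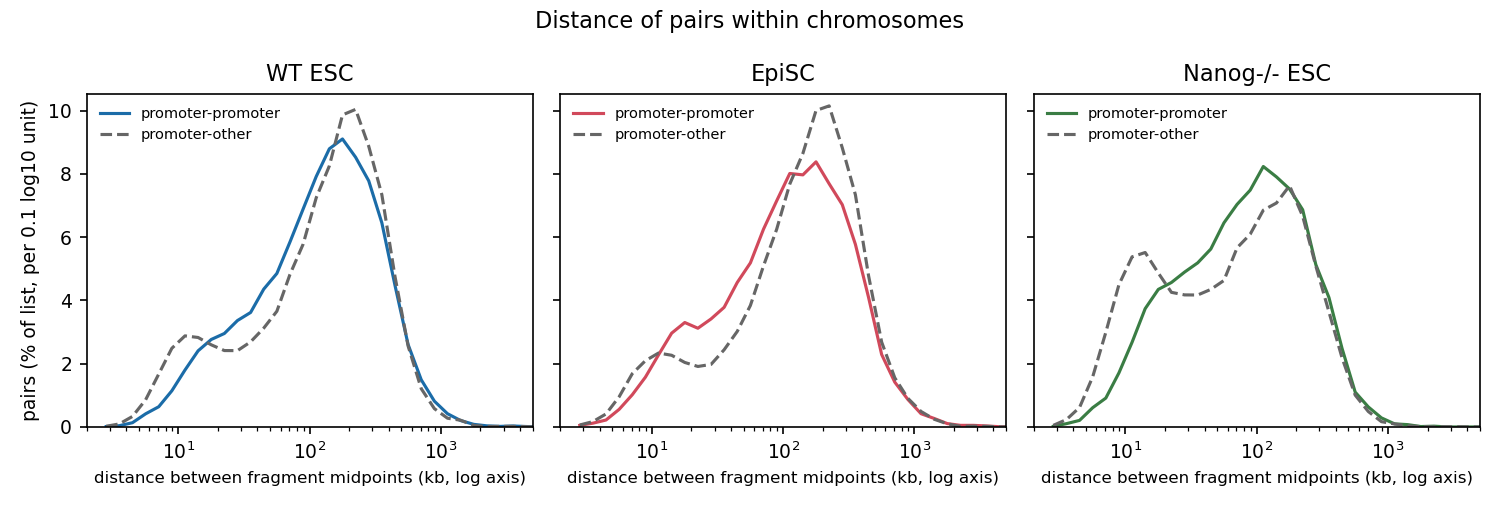
Distance between the fragment midpoints of each pair (kb, log axis) against the share of the list's pairs of that kind (percent per 0.1 log10 unit), for promoter-promoter pairs (solid line) and promoter-other pairs (dashed line) in the 3 cell types. The promoter-promoter curves of WT ESCs and EpiSCs peak between 158 and 199.5 kb, and that of Nanog-/- ESCs between 100 and 126 kb.

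Contacts of more than 800 kb, the distance the study used to separate long from short interactions, were few among promoter pairs. They numbered 377 in WT ESCs (1.63%, interval 1.47 to 1.80), 282 in EpiSCs (1.76%) and 79 in Nanog-/- ESCs (0.480%). The corresponding shares of promoter-other contacts were 1.20%, 1.79% and 0.339%. The median contact skipped over 3 other baited fragments in WT ESCs and 2 in the other cell types, and 21.05% of WT ESC contacts joined baits with none between them. Median reads per contact were 12, 11 and 10. Read depth before calling is not in the files used here, so how far the lower Nanog-/- count and its shorter distances follow from depth was not tested.

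Chromosomes 11 and 7 carried the most promoter-promoter contacts per baited fragment, 2.68 and 2.67 over the 3 lists together, followed by chromosome 17 with 2.30. Chromosome X had 0.884 and chromosome 1 had 1.22. X-linked contacts were also the least shared, with 10.9% of 478 pairs in all 3 lists against 25.2% of 1852 on chromosome 17.

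In all, 6826 promoter-promoter contacts (20.4%) were in all 3 lists. Another 4033 were in WT and Nanog-/- ESCs, 3215 in WT ESCs and EpiSCs and 1284 in EpiSCs and Nanog-/- ESCs, while 9121 were listed in WT ESCs alone, 4704 in EpiSCs alone and 4307 in Nanog-/- ESCs alone. Of promoter-other contacts, 12.9% were in all 3 lists and 25.8% in EpiSCs alone, against 14.0% of promoter-promoter contacts in EpiSCs alone. Contacts in all 3 lists were short, with a median of 71.0 kb, and well covered, with a median of 22 reads in WT ESCs against 8 for those listed in WT ESCs alone, whose median distance was 193 kb.

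**Figure D2:**
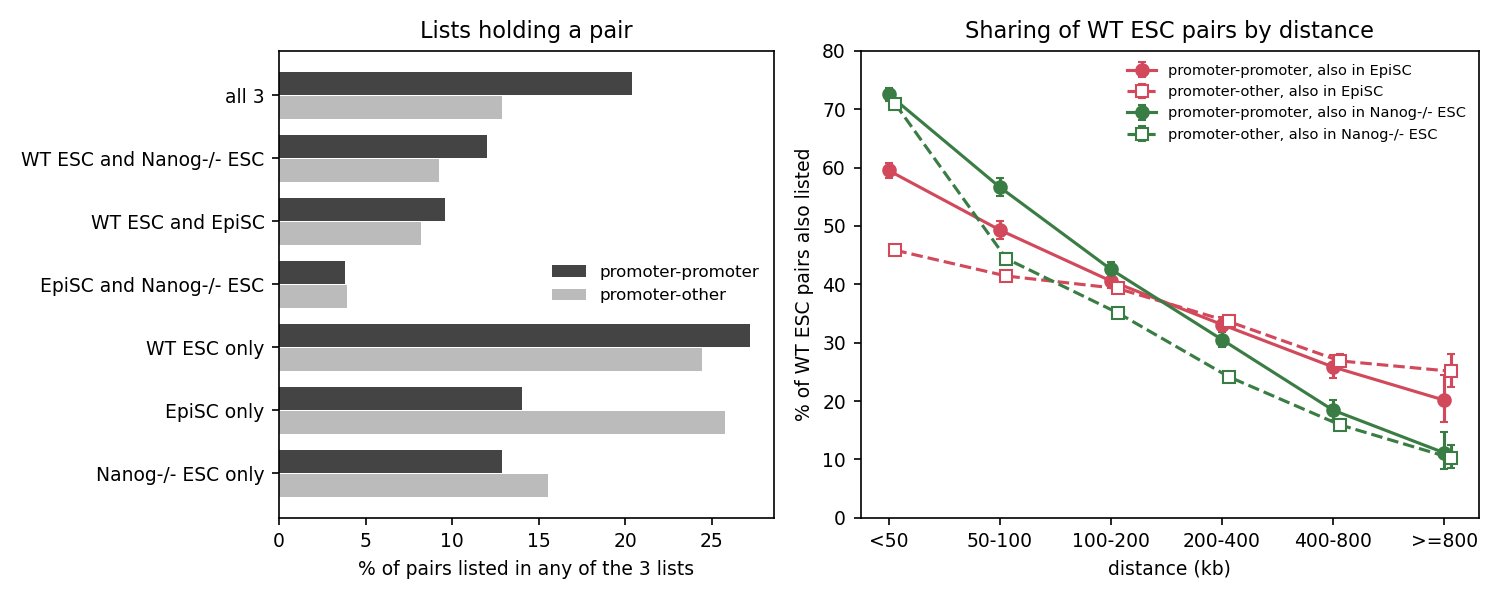
Left, share of all pairs listed in any cell type (percent) that fell into each combination of lists, for promoter-promoter pairs (dark bars) and promoter-other pairs (light bars). Right, share of WT ESC pairs also listed in EpiSCs or Nanog-/- ESCs (percent) by distance bin (kb), with 95% Wilson intervals. Sharing with Nanog-/- ESCs falls from 72.5% of promoter-promoter pairs under 50 kb to 11.1% over 800 kb.

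Of WT ESC promoter-promoter contacts, 43.3% (interval 42.7 to 43.9) were also listed in EpiSCs and 46.8% (46.2 to 47.5) in Nanog-/- ESCs. The shares of promoter-other contacts were 38.5% and 40.4%. When promoter-other contacts were weighted to the distances and scores of the promoter pairs, these became 43.6% and 44.99%, so for WT ESCs little of the gap remained. For EpiSCs it did: 62.6% of their promoter pairs were also in WT ESCs, against 46.1% of promoter-other pairs weighted in the same way. The chance to be listed from either end is a difference that this weighting leaves in place.

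Sharing followed score and distance. Among WT ESC promoter pairs with scores of 5 to 6, 24.6% were also in EpiSCs, and among those with scores of 20 or more, 89.3% of 525 were. In Nanog-/- ESCs, 99.6% of the 529 promoter pairs with scores of 20 or more were also in WT ESCs. With distance, sharing of WT ESC pairs with EpiSCs fell from 59.5% under 50 kb to 20.2% over 800 kb, where the median pair had 5 reads.

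The contact with the highest score in WT and Nanog-/- ESCs was in all 3 lists. Olfr206 (chr16:59344992-59356433) and Olfr209 (chr16:59360067-59365615), olfactory receptor genes 12.1 kb apart, were joined by 289 reads in WT ESCs, against 121 in EpiSCs and 219 in Nanog-/- ESCs. Their scores were 163, 42.7 and 144. Both genes were listed at 0 RPKM throughout, and their near-identical relatives make reads there uncertain.

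Gm11062 and 1810030J14Rik on chromosome 1 stood out by distance as well as score. They lay 1052 kb apart with 15 baited fragments between them, and had 31, 30 and 33 reads with scores of 66.6, 81.5 and 96.4. Neither gene rose above 0.0664 RPKM in any cell type. The coding start sites in these fragments are those of Mptx2 and Mptx1, related genes by name. Whether reads were misplaced between them was not tested, so this contact is uncertain. Cabp4 and Coro1b, a calcium-binding and an actin-binding protein gene 12.8 kb apart, had scores of 50.9, 62.4 and 86.4, and differed widely in level, at 1.31 and 101 RPKM in WT ESCs. Both fragments held a start site of Cabp4, so this contrast rests on the gene names in the lists.

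Other contacts also ranked among the 5 highest scores of a list. Gmfg and Pak4, a kinase gene 163 kb away, scored 37.0, 62.0 and 31.2, and Dmkn and the fatty acid receptor gene Ffar1, at 96.1 kb, 31.6, 58.9 and 25.3. The Gmfg and Pak4 fragments both held a start site of Samd4b. Plscr3 and the kinase gene Tnk1, 8.10 kb apart, scored 54.5, 37.4 and 36.04. Each of these contacts was in all 3 lists, while Fn3krp with Fn3k (17.9 in WT ESCs, 56.1 in EpiSCs) and Pigs with Unc119 (37.6 in WT ESCs, 76.8 in Nanog-/- ESCs) were missing from 1 list. U2.22 with Dhx8 (75.2 kb) and Gm13330 with Gm13334 (661 kb) also ranked in WT ESCs, and 4930557C09Rik with BC046404 in Nanog-/- ESCs.

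Of contacts in all 3 lists, the 5 with the most reads lay 4.28 to 10.2 kb apart. Tspan10 and Pde6g, a tetraspanin and a phototransduction gene, had 285, 235 and 178 reads with scores of 8.40, 11.2 and 17.0, and Gm16258 and Hoxc11 had 294, 228 and 172 reads with scores of 9.01, 10.0 and 12.4. U6.871 with Gm12352, Mmel1 with Gm13112 and Mir667 with Mir382 completed them.

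Among the longest contacts present in all 3 lists, the widest joined Hrk, a pro-apoptotic gene, to Lhx5, a LIM homeobox gene of the forebrain, across 2.26 Mb of chromosome 5 (chr5:118168147-118174238 and chr5:120431324-120435891). It had 14 reads in WT ESCs, against 7 in EpiSCs and 5 in Nanog-/- ESCs, with scores of 29.3, 14.8 and 7.14.

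Other contacts among the 5 longest lay in or beside the Hist1 cluster of chromosome 13, which encodes core histones made in S phase. Hist1h4i met Hist1h2ae at 1527 kb with scores of 25.6, 14.1 and 5.12, and Hist1h4f at 1510 kb with scores of 8.43, 8.66 and 9.90. Zfp184 and Abt1, at 1479 kb, scored 22.9, 5.67 and 5.91. Histone genes of this cluster are near-identical copies, so reads there are uncertain. In all, 26 of the 614 promoter contacts over 800 kb were in all 3 lists. Beyond 5 Mb there were 13 contacts, 0 of them in all 3 lists and 2 in a pair of lists, and 4 of these 13 ended at U2.22, whose small RNA name marks a repeated gene.

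Genes for lineage-specifying transcription factors kept more of their contacts with one another in all 3 cell types than promoters in general. The list of 222 baits covered homeobox, Pax, Sox, Tbx, Fox and Gata genes, bHLH and Zic factor genes, and antisense transcripts named after such genes. They had 149 contacts with each other, 129 in WT ESCs, against 87 in EpiSCs and 129 in Nanog-/- ESCs. Of these, 51.7% (interval 43.7 to 59.6) were in all 3 lists, against 20.4% of all promoter contacts. They were also shorter, with a median of 52.9 kb against 130 kb. Hox loci carried most of them: 87 joined a pair of Hox genes, with 57.5% (47.0 to 67.3) in all 3 lists, which is 50 of the 77 developmental contacts there. Further contacts joined Hox genes to the antisense transcripts Hoxa11as and Hoxb3os inside the clusters, or to Evx1 and Evx2 beside them.

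On chromosome 5 the T-box and LIM genes formed a set of contacts that was more complete in both ESC types than in EpiSCs. Tbx3, a naive-state factor at 14.9 RPKM in WT ESCs, against 0.526 in EpiSCs and 24.1 in Nanog-/- ESCs, met the nearly silent Lhx5 at 762 kb. That contact had 40 reads in WT ESCs, against 7 in EpiSCs and 17 in Nanog-/- ESCs, with scores of 39.1, 10.6 and 26.0. Hrk with Tbx3 (1500.5 kb, scores 22.03 and 6.25), Tbx5 with Lhx5 (600 kb, 33.2 and 8.17) and Tbx3 with Tbx5 (162 kb) were listed in both ESC types and not in EpiSCs. The contact of Tbx5 was chosen after the values were seen.

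A comparable set on chromosome 12, chosen after the values were seen, joined Nkx2-1, Pax9 and Foxa1, factors of endoderm and pharyngeal development. Nkx2-1 and Pax9, 157 kb apart, had 36, 9 and 28 reads with scores of 32.2, 7.65 and 39.4. Pax9 and Foxa1, 850 kb apart, had 15, 8 and 10 reads with scores of 30.7, 18.1 and 20.3. Scores were lowest in EpiSCs for both contacts, and Foxa1 was the one gene of the set with a high level there, at 0.330, 33.4 and 1.15 RPKM.

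The Iroquois homeobox genes Irx3 and Irx5 had close scores in the 3 cell types. They lay 556 kb apart on chromosome 8 and had 30, 26 and 16 reads and scores of 37.4, 35.99 and 34.4. Over the same samples Irx3 went from 0.560 RPKM in WT ESCs to 21.3 in EpiSCs and Irx5 from 0.269 to 5.91. Pax1, nearly silent throughout, and Foxa2, an endoderm factor at 0.831, 90.5 and 2.54 RPKM, were linked across 687 kb with 12, 5 and 8 reads.

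Contacts among olfactory and vomeronasal receptor genes, which are silent here and lie in clusters, were less often in all 3 lists. The 703 baits of olfactory and vomeronasal receptor genes had 1042 contacts with each other, 816 in WT ESCs, against 381 in EpiSCs and 259 in Nanog-/- ESCs. They made up 3.52%, 2.38% and 1.57% of the lists, with 10.5% (interval 8.75 to 12.5) in all 3 lists and 525 in WT ESCs alone. Clustered protocadherin genes, which encode neuronal adhesion proteins, had 94, 47 and 35 contacts among 21 baits, at a median level of 0.0139 RPKM in WT ESCs and 1.57 in EpiSCs. Histone genes had 61, 57 and 27, with 23.3% in all 3 lists, and zinc finger genes 79, 55 and 34, with 11.3%.

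Keratin and keratin-associated genes were the densest block. Of the 30 baits with the most promoter partners over the 3 lists, each with at least 32, 26 lay in the keratin cluster of chromosome 11, and of 25 of these with an RPKM value 19 were listed at 0 in all cell types. Krt23 (chr11:99489071-99495393) and Krtap29-1 (chr11:99977156-99979330) had 54 partners each. Krt23 had 46 in WT ESCs, against 18 in EpiSCs and 38 in Nanog-/- ESCs, and Krtap29-1 46, 28 and 28.

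**Figure D3:**
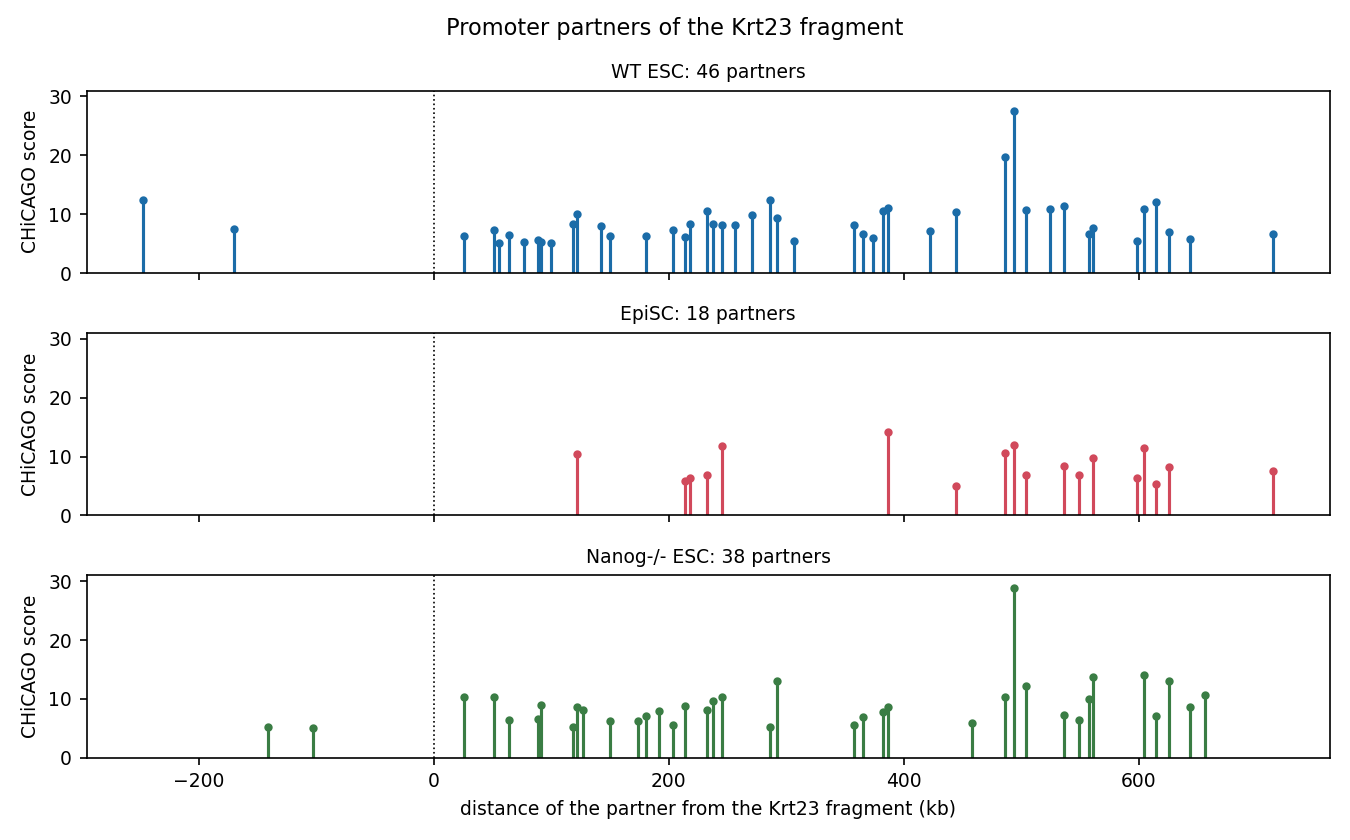
Promoter partners of the Krt23 fragment, by the distance of the partner's midpoint (kb, positive toward higher coordinates) and the CHiCAGO score of the contact, in WT ESCs, EpiSCs and Nanog-/- ESCs. Of 54 partners 50 lie on the side of higher coordinates, within 715 kb, and 13 are in all 3 lists.

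The contacts of Krt23, which encodes a type I keratin, ran to one side. Of its 54 partners, 50 lay at higher coordinates, out to 715 kb, 4 lay at lower coordinates, and 33 were themselves keratin or keratin-associated genes. In WT ESCs the highest scores were with Gm11570 at 494 kb (27.5, 12.0 and 28.8) and Krtap29-1 at 486 kb (19.7, 10.7 and 10.3). Outside the keratin cluster, Dmkn and Plscr3 led, with 38 and 36 partners, on chromosome 7 and in another stretch of chromosome 11.

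Most contacts belonged to groups of linked baits. In WT ESCs 67.3% of promoter contacts were part of a triangle of mutually linked baits, in EpiSCs 57.7% and in Nanog-/- ESCs 67.2%. The median bait with any contact had 2 partners, and 741, 283 and 433 baits had 10 or more. The largest connected group held 196 baits of chromosome 7 in WT ESCs, and 98 and 108 baits of chromosome 10 in EpiSCs and Nanog-/- ESCs.

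Promoter contacts of pluripotency genes seldom joined members of the same gene list. The 12 naive-state baits took part in 25 promoter contacts, the 15 primed-state baits in 36 and the 10 general pluripotency baits in 22, of which 6, 6 and 5 were in all 3 lists. A single contact, between Zic5 and Zic2, had both ends in the same one of these lists. Contacts across the lists are not given here. No background for so few baits was set beside the count, so it does not mark these genes out. Naive-state genes had 18 contacts in WT ESCs, against 11 in EpiSCs and 16 in Nanog-/- ESCs, and primed-state genes had 27, 15 and 19. EpiSCs had the lowest count for both lists, and also the shortest list of promoter-promoter contacts overall.

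Nanog (chr6:122707373-122709173) met Foxj2, a forkhead gene 113 kb away, with 9, 8 and 8 reads and scores of 7.98, 5.11 and 9.68. Its contact with Slc2a3, a glucose transporter gene, was listed in WT ESCs alone (9 reads, score 7.29). The contact of Nanog with C3ar1, 145 kb away, was listed in EpiSCs alone (6 reads, score 8.01). T, the mesoderm factor Brachyury, met Sft2d1 in all 3 lists with scores of 10.3, 5.16 and 7.07, and Prr18 in both ESC types (13.1 and 5.63) and not in EpiSCs, where T stood at 444 RPKM.

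Some contacts of primed genes were listed in EpiSCs and not in WT ESCs, and those of Eomes and Fgf5 had the highest EpiSC scores among them. Eomes, a factor of mesendoderm, met Cmc1 in EpiSCs alone (329 kb, 11 reads, score 14.3). Fgf5 met 1700007G11Rik in EpiSCs (73.0 kb, 24 reads, score 10.0) and, at a lower score of 5.29, in Nanog-/- ESCs, whereas its contact with Prdm8 was in WT ESCs alone. Klf4 met a fragment named for SNORA17.260 at 1144 kb with 14, 7 and 5 reads, but that name belongs to a repeated small RNA family, so the identity of the partner is uncertain.

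Some contacts listed in 1 cell type had high scores there. In WT ESCs they were led by Tex21 with Mthfd1, a folate enzyme gene (62 reads, score 51.5), in EpiSCs by the bromodomain gene Brd2 with H2-DMa (112 reads, 39.8), and in Nanog-/- ESCs by Taf8, a TFIID subunit gene, with Usp49 (12 reads, 20.9). Mthfd1 was at 188, 576 and 209 RPKM and Usp49 at 8.43, 13.3 and 7.15, so neither was highest in the cells of the listing. Brd2, at 111, 164 and 127 RPKM, was, although the median gene was also 0.46 log2 units higher in EpiSCs than in WT ESCs. The Brd2 fragment held start sites of both Brd2 and H2-DMa, and the fragment named H2-DMa held no coding start site. That contact therefore rests on the gene names in the lists.

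Linked genes had more similar levels than unlinked genes at the same distances. For each baited fragment the level was taken as log2(RPKM + 1), and the 24498 contacts with a level at each end and different gene names were set beside all bait pairs of the same chromosome that were in no list, weighted to the linked pairs' distances. Pearson r between the ends over pairs was 0.31 for linked and 0.17 for unlinked pairs in WT ESCs (17003 linked pairs), 0.32 and 0.18 in EpiSCs (11591) and 0.26 and 0.19 in Nanog-/- ESCs (12120). Against unlinked pairs of only those baits that had a contact in the list, the unlinked r was 0.17, 0.16 and 0.14, which widened the gap of Nanog-/- ESCs from 0.07 to 0.11. These r describe pairs that share baits and neighbourhoods, so they carry no test. The median difference between the ends was 1.64 log2 units for linked and 2.02 for unlinked pairs in WT ESCs, 1.87 and 2.22 in EpiSCs, and 1.82 and 1.98 in Nanog-/- ESCs.

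The gap grew with distance. In WT ESCs the r of linked pairs was 0.34 under 50 kb, 0.28 from 100 to 200 kb and 0.36 over 800 kb, while that of unlinked pairs went from 0.26 to 0.14 and 0.03. In EpiSCs the values over 800 kb were 0.39 and 0.04 (197 linked pairs), and in Nanog-/- ESCs 0.48 and 0.03 (61 linked pairs). Under 50 kb, linked and unlinked pairs of Nanog-/- ESCs had nearly the same r, 0.28 and 0.26. There the median difference between the ends was larger for linked pairs, 1.82 log2 units against 1.74.

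**Figure D4:**
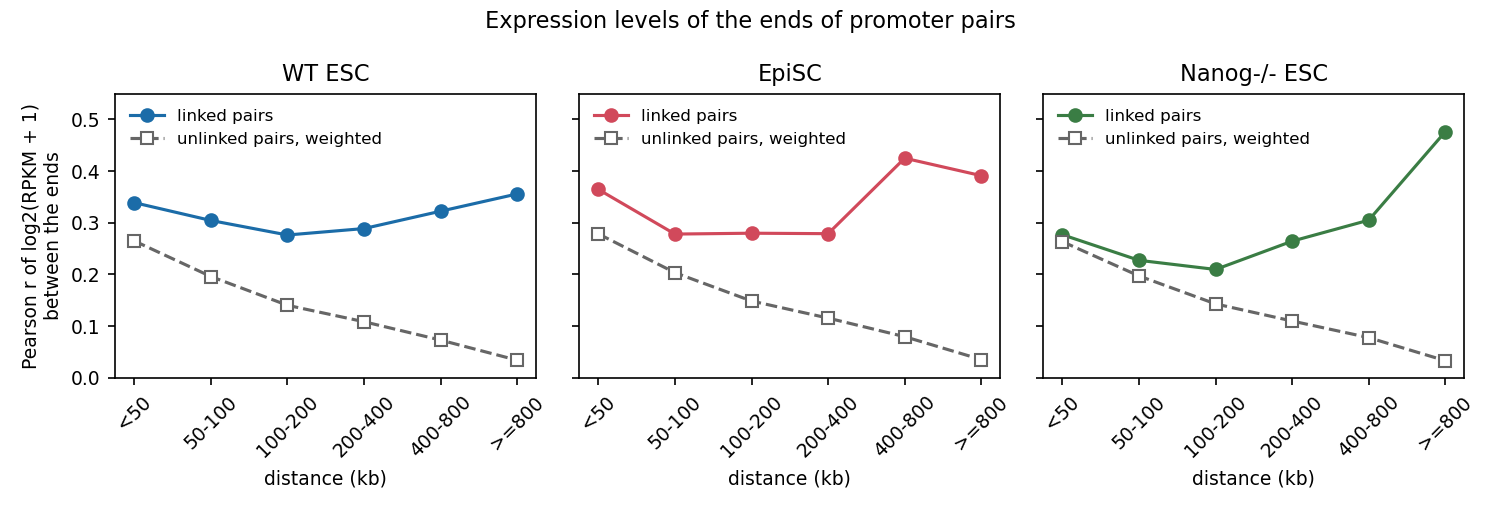
Pearson r of log2(RPKM + 1) between the ends of promoter pairs, by distance bin (kb), for linked pairs (filled circles) and all unlinked bait pairs weighted to the same distances (open squares), in WT ESCs, EpiSCs and Nanog-/- ESCs. In each cell type the unlinked values fall to 0.04 or less over 800 kb and the linked values do not fall with them.

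Much of the similarity was between genes that were on and genes that were off. In WT ESCs both ends were below 1 RPKM in 22.7% of linked pairs (interval 22.05 to 23.3) and 18.6% of unlinked pairs, and both were at 1 RPKM or more in 46.8% (46.1 to 47.6) and 44.8%. EpiSC contacts leaned to active genes, with both ends at 1 RPKM or more in 54.2% (53.2 to 55.1) against 46.2% of unlinked pairs, and both below 1 RPKM in 17.2% against 18.1%. In Nanog-/- ESCs the shares were 50.1% against 45.8%, and 18.3% against 19.0%. With both ends restricted to genes at 1 RPKM or more in at least 1 cell type, r dropped to 0.10 for linked and 0.03 for unlinked pairs in WT ESCs, 0.10 and 0.01 in EpiSCs and 0.07 and 0.03 in Nanog-/- ESCs.

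Silent pairs made up a larger share of long contacts than of all contacts. At 400 kb or more, both ends were below 1 RPKM in 33.8% (31.6 to 36.1) of 1690 linked pairs in WT ESCs and 34.4% (30.6 to 38.3) of 579 in Nanog-/- ESCs, against 15.0% and 14.7% of unlinked pairs. In EpiSCs the share was 22.9% (20.5 to 25.5) of 1085, against 13.9%. Of the 571 silent long pairs of WT ESCs, 28.0% had an olfactory or vomeronasal receptor gene at an end, 25.9% a keratin gene and 7.71% a developmental factor. Without olfactory, vomeronasal and keratin ends the shares were still higher in linked than in unlinked pairs, 19.6% against 10.3% in WT ESCs, 11.8% against 8.99% in EpiSCs and 21.5% against 9.87% in Nanog-/- ESCs.

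Contacts listed in WT ESCs alone and in EpiSCs alone departed from unlinked pairs in different ways. Of those in WT ESCs alone, 25.9% had both ends below 1 RPKM by WT ESC levels, against 17.5% of unlinked pairs. Both ends were at 1 RPKM or more in 43.95%, near the 44.6% of unlinked pairs. Of those in EpiSCs alone, 54.3% had both ends at 1 RPKM or more by the same WT ESC levels, against 44.5% of unlinked pairs. Their genes were thus already more often on in WT ESCs. Both ends were below 1 RPKM in 16.3%, near the 17.7% of unlinked pairs. Contacts in Nanog-/- ESCs alone had r of 0.19 against 0.18 for unlinked pairs, and those in all 3 lists had 0.31 against 0.20 in both WT and Nanog-/- ESCs.

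The number of partners did not rank genes by level in a simple way. In WT ESCs the median RPKM of baits was 3.19 with 0 partners, 5.16 with 2 to 4 and 2.72 with 10 or more. In EpiSCs it was 4.86, 14.1 and 7.43, and in Nanog-/- ESCs 3.28, 5.41 and 2.67. The middle of the range held the highest levels in each cell type.

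Genes that differed between cell types were about as common at the ends of promoter contacts as among all baited genes. The median gene was 0.46 log2 units higher in EpiSCs than in WT ESCs (0.01 for Nanog-/- ESCs), so differences were centred on it. Of 15313 measured baited genes, 16.6% were higher in EpiSCs by 1 log2 unit or more and 8.89% were lower. Among the genes at ends of contacts that EpiSCs had and WT ESCs lacked, 17.0% (interval 16.1 to 17.9) of 6255 were higher and 9.08% (8.39 to 9.82) lower. For Nanog-/- ESCs, 1.65% of all baited genes were higher and 1.38% lower, and at contacts that Nanog-/- ESCs had and WT ESCs lacked the shares were 1.51% (1.22 to 1.86) of 5638 genes and 1.44% (1.16 to 1.78). Each of these shares lay near the background.

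Linked genes were higher together in EpiSCs slightly more often than unlinked genes. Both ends were higher by 1 log2 unit or more in 603 of 17003 WT ESC contacts, 3.55% (3.28 to 3.84), against 2.51% of unlinked pairs, and in 210 of 4910 contacts of all 3 lists, 4.28% (3.75 to 4.88), against 2.58%. Both ends were lower in 1.06% and 1.19%, and the ends moved in opposite directions in 2.63% and 2.62%. The r of the EpiSC minus WT ESC difference was 0.08 for linked and 0.06 for unlinked pairs over WT ESC contacts, and 0.13 and 0.08 over contacts in all 3 lists. Contacts that EpiSCs had and WT ESCs lacked had 0.07 and 0.05, no wider a gap than contacts present in both lists, 0.11 and 0.07.

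For Nanog-/- ESCs linked and unlinked pairs had nearly the same values. The r of their difference from WT ESCs was 0.07 for linked and 0.06 for unlinked pairs over WT ESC contacts, and 0.08 for both over their own. Both ends were higher in 11 of 17003 contacts, 0.0647% against 0.0425% of unlinked pairs, and lower in 7, 0.0412% against 0.0631%.

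Among the pairs that were higher together, Fads2 and Fads1 led by score. Fads1 and Fads2, the fatty acid desaturases of chromosome 19, lay 81.4 kb apart. Their contact had 11 reads in WT ESCs, against 37 in EpiSCs and 10 in Nanog-/- ESCs, with scores of 11.9, 43.8 and 13.3. Fads2 stood at 62.6, 763 and 43.6 RPKM and Fads1 at 40.5, 385 and 32.5, so reads, score and both levels were highest in EpiSCs.

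Other pairs that were higher in EpiSCs by 2 log2 units at each end, before centring, did not all gain score in the same measure. Ccnd2, which encodes cyclin D2, and Parp11 were joined by 40, 37 and 25 reads with scores of 32.3, 36.3 and 29.5, at 10.4, 153 and 6.90 RPKM and 3.05, 17.0 and 3.97 RPKM. Lefty1, a Nodal antagonist at 246 and 1680 RPKM in WT ESCs and EpiSCs, met Tmem63a with 91 and 52 reads and scores of 26.8 and 37.6, so the reads were lower and the score higher in EpiSCs. Among pairs lower in EpiSCs, Dppa5a and Ooep, neighbours of the oocyte and ESC gene cluster on chromosome 9, kept a contact of 31, 23 and 12 reads with scores of 11.9, 6.30 and 5.36. Their levels were 4144, 1.18 and 3731 RPKM and 72.4, 0.0984 and 23.8 RPKM.

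The promoters of linked genes were also more alike in CpG content than those of unlinked genes, chiefly at 100 kb or more. CpG observed over expected was computed in the 300 bases around the annotated start sites within each baited fragment, and 97.3% of baits had a value. Its r between the ends was 0.23 for linked and 0.13 for unlinked pairs in WT ESCs, 0.22 and 0.13 in EpiSCs and 0.18 and 0.14 in Nanog-/- ESCs. At 400 kb or more the values were 0.30 and 0.07, 0.31 and 0.07, and 0.27 and 0.07. Under 100 kb they were 0.206 and 0.166, 0.211 and 0.165, and 0.163 and 0.166, so Nanog-/- ESCs had no gap there. Both ends had a ratio of 0.6 or more in 22.8% (22.1 to 23.5) of EpiSC contacts against 18.1% of unlinked pairs, and in 20.9% (20.4 to 21.4) of WT ESC contacts against 18.2%.

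Silent linked promoters with CpG-rich windows at both ends were few, but more frequent than among unlinked pairs. They made up 139 of 3612 WT ESC contacts with both ends below 1 RPKM, 3.85% (3.27 to 4.53), against 1.74% of unlinked silent pairs. In EpiSCs they were 62 of 1869, 3.32% against 1.55%, and in Nanog-/- ESCs 91 of 2096, 4.34% against 1.30%.

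The CTCF-like motif of the windows above was in 39.6% of baited fragments, whose median length was 5704.5 bases, and in 22.4% of other listed fragments, whose median length was 2169 bases. Per 100 kb of sequence the densities were 9.98 and 10.3 matches. Repeats that RefSeq masks held 53.5% of the matches in baited fragments, although 24.4% of the bases were masked. A match at both ends was less common in linked than in unlinked pairs, at 18.3% (17.8 to 18.8) against 23.6% in WT ESCs, 15.9% against 23.7% in EpiSCs and 20.5% against 24.03% in Nanog-/- ESCs. These unlinked pairs were weighted to distance and not to fragment length. Taken singly, 40.1% of baits with a promoter-promoter contact held a match, against 37.4% of baits with none. Their median lengths were 5465 and 6962 bases, and their densities 10.6 and 7.72 matches per 100 kb.

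Where each end held exactly 1 match, its orientation differed between linked and unlinked pairs. At 100 kb or more the motifs pointed toward each other (convergent) in 270 of 841 WT ESC contacts, 32.1% (interval 29.0 to 35.3), and away from each other (divergent) in 181, 21.5% (18.9 to 24.4). Unlinked pairs of the same distances had 23.8% and 26.1%. In EpiSCs 36.9% (32.7 to 41.2) of 483 contacts were convergent and 18.6% divergent, and in Nanog-/- ESCs 32.2% (28.2 to 36.4) of 494 and 21.1%. Below 100 kb the convergent shares were 24.2%, 25.2% and 24.3%, near the 22.3%, 22.5% and 22.2% of unlinked pairs.

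**Figure D5:**
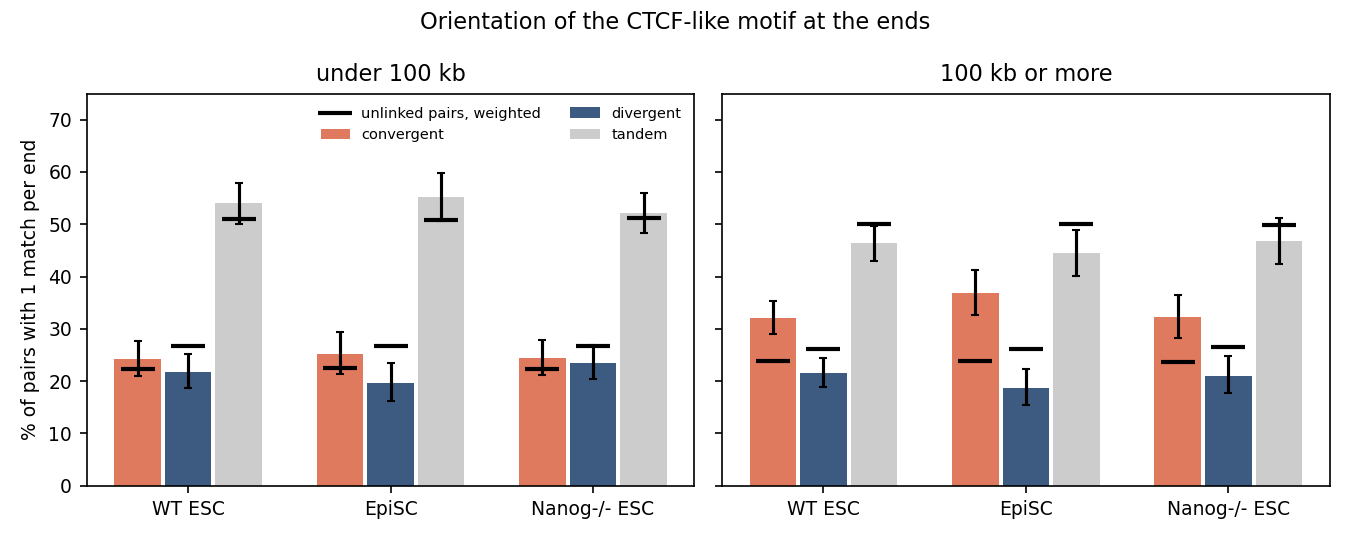
Share of promoter pairs with exactly 1 CTCF-like match per end (percent) whose motifs point toward each other (convergent), away from each other (divergent) or the same way (tandem), under 100 kb (left) and at 100 kb or more (right), with 95% Wilson intervals. Black bars mark unlinked bait pairs weighted to the same distances. The convergent share exceeds that of unlinked pairs beyond its interval only at 100 kb or more.

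Linked pairs also exceeded unlinked pairs where no match lay in a masked repeat. At 100 kb or more they were convergent in 36.2% (31.1 to 41.7) of 312 WT ESC contacts, 41.6% (34.8 to 48.8) of 185 EpiSC contacts and 31.1% (24.9 to 37.95) of 190 Nanog-/- ESC contacts, against 22.3%, 22.2% and 21.9% of unlinked pairs. With 1 or both matches in a masked repeat, as for Zbtb39 and Hsd17b6, the shares were 29.7%, 33.9% and 32.9%, against 24.4%, 24.4% and 24.1%. The split by repeats was chosen after the data were seen.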

How the data were processed

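PCHi-C, RNA-seq and ChIP-seq samples are labelled in the series, 26 in all, and the 4 ChIP-seq samples were not used. By the study's methods, reads were filtered with HiCUP, and interactions of single HindIII fragments were called with CHiCAGO on 2 biological replicates per cell type, normalized and combined into 1 list each. The processing notes name Bowtie 1.1.0 and GRCm38/mm10 for PCHi-C, and Trim Galore, TopHat and DESeq2 for RNA-seq. How RNA reads were counted is not given in the sources used here. In each list the authors deposited the read counts joining 2 fragments and a CHiCAGO score. For each gene they deposited a median RPKM per cell type, and log2 fold changes and p-values of their own comparisons, which were not used. The RNA column named BT12 was taken as Nanog-/- ESCs, the one other ESC group of the series. Summed reads of promoter-promoter pairs were 453979 in WT ESCs, against 293993 in EpiSCs and 254803 in Nanog-/- ESCs.

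Fragments were matched by coordinates, and reads and score of a pair listed from both ends are the higher values. Nanog-/- ESCs had 1216 such pairs whose reads differed between the ends, WT ESCs 29 and EpiSCs 13. The RPKM table held 15646 genes, and 15369 of the 19022 baits matched it by name. Levels are those of the genes named in the lists, while 2066 baits (10.9%) held start sites of 2 or more coding genes. Unlinked pairs were all pairs of measured baits on a chromosome in none of the 3 lists, weighted so that each of 20 distance bins per factor of 10 held the share of the linked pairs. Nothing was drawn at random. Motifs were searched in RefSeq GRCm38.p6, and start sites were taken from GENCODE M21, with RefSeq as a supplement. Scripts used Python 3.11.15, numpy 2.4.6, pandas 2.3.3 and pysam 0.24.0, and the weighted r was tested on simulated data.

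Members and gene lists were chosen with earlier results of these data known. Named pairs were, per list, the 5 with the highest score, of pairs in all 3 lists the 5 with the most reads and the 5 longest, the 3 with the highest score in each single list, the 5 baits with the most partners, the 5 pairs with the highest score whose genes both differed by 2 log2 units in EpiSCs in each direction, and pairs of the pluripotency lists. A pair with an end on chromosome 18 and 1 of the 5 longest pairs are not reported here, and other names were chosen after their values were seen. Alternatives were scores of at least 7, at least 10 reads, contacts listed from both ends, and for expression other pseudocounts, filters, gene choices, unlinked sets and bins.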

Additional observations from a re-analysis of the deposited data

Results flagged for a closer look

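Promoter-promoter pairs between chromosomes lie outside the contacts described above and drew attention because they were present in each list above the limit of 3 that a count of 0 allows. They numbered 31 in WT ESCs, against 18 in EpiSCs and 15 in Nanog-/- ESCs, or 39 different pairs, of which 15 were in 2 or more lists and 10 in all 3. A small RNA bait was at an end of 6 of them. The pair with the highest score joined Itpkb, an inositol kinase gene of chromosome 1, to Gm7235 of chromosome 7, with 34, 19 and 33 reads and scores of 255, 134 and 253. Gm16040 with Ces1h had 24, 28 and 17 reads, and Rogdi with Fam47e 18, 13 and 12. Gm7235 also paired with Psen2 of chromosome 1, and Gm16040 with Ces1d, Ces1e and Ces1g of chromosome 8. Fam136b-ps paired with Fam136a, a gene of like name. Whether misplaced or duplicated sequence gave these pairs was not tested, so they are uncertain as contacts.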

How the results depend on the processing

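No paired analysis was possible because each list and each RPKM value combines replicates, and for the same reason no replicate could be left out. Of the recomputed values 62 stayed close to the reported ones, some under settings that could hardly change them, 50 moved and 2 turned direction. The cause was not tested. Values follow in the order WT ESCs, EpiSCs, Nanog-/- ESCs. With scores of at least 7 the lists held 11693, 7865 and 8588 pairs with median distances of 111, 102 and 65.1 kb. With at least 10 reads they held 14753, 9150 and 8647 pairs at 75.8, 56.7 and 36.7 kb, and with listing from both ends 7298, 5576 and 7284 pairs at 135, 128 and 79.1 kb. Shares were then recomputed between lists restricted in the same way, at scores of at least 7, at 10 reads and for listing from both ends in turn. WT ESC pairs also in EpiSCs were 39.6%, 44.4% and 40.1%, and in Nanog-/- ESCs 44.6%, 42.6% and 51.8%. EpiSC pairs also in WT ESCs were 58.8%, 71.6% and 52.5%, and in Nanog-/- ESCs 47.4%, 53.3% and 47.5%. Nanog-/- ESC pairs also in WT ESCs were 60.8%, 72.7% and 51.9%, and in EpiSCs 43.4%, 56.4% and 36.4%.

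The r of linked pairs stayed above that of unlinked pairs in 27 of 27 alternatives for expression levels. These alternatives are not independent, and some could hardly differ from the main setting. Only 7 baits carried several names, and taking the highest gene of a fragment left each difference in r unchanged. The difference was 0.16 in WT ESCs with a pseudocount of 0.1, and 0.0687, 0.0908 and 0.0313 with both ends at 1 RPKM or more in a cell type. Against unlinked pairs of baits with a contact in the list it was 0.16 in EpiSCs and 0.11 in Nanog-/- ESCs, and without same-family pairs 0.0932 in Nanog-/- ESCs. For joint change it stayed above in 34 of 36. It was 0.0399 for EpiSCs over WT ESC pairs at scores of at least 7, and 0.0291 for Nanog-/- ESCs over WT ESC pairs with a pseudocount of 0.1. Over Nanog-/- ESC pairs it turned to -0.0019 with both ends at 1 RPKM or more and to -0.0068 without same-family pairs. Alternatives for orientation and for pairs of 400 kb or more were chosen after seeing the data. Convergent shares were 36.2% in WT ESCs and 41.6% in EpiSCs without masked matches, and 38.6% in Nanog-/- ESCs both at scores of at least 7 and at 10 reads. At 400 kb or more the difference in r was 0.19 in WT ESCs without olfactory, vomeronasal and keratin ends. Few reads per long contact, with a median of 5 over 800 kb in WT ESCs, limit what absence from a list can show.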
